A study of Mus musculus with 3 samples.

Results

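Messenger RNA levels in round spermatids of MiwiR371W mice were set against those in round spermatids of wild-type (WT) mice, gene by gene. Every gene whose MiwiR371W and WT values had a mean of at least 1 was taken, which gave 12569 of the 17946 genes in the table (70.0%). Closest above that limit were Tom1l2, at 1.07 in MiwiR371W, against 0.93 in WT, and Grpel2, at 1.2 in MiwiR371W, against 0.8 in WT. Closest below it were Gm8108, at 1.61 in MiwiR371W, against 0.38 in WT, and Sgk1, at 0.87 in MiwiR371W, against 1.12 in WT. The series held 1 library each of MiwiR371W, MiwiΔIns and WT round spermatids, all from male C57BL/6 mice aged 28 days. Cells of the seminiferous tubules had been stained with the DNA dye Hoechst and sorted by fluorescence, and the total RNA of the sorted cells went into an mRNA-seq library. The submitters also looked at the nuclei of the sorted cells under DAPI. The labels give both alleles by name alone. The sources used here do not give the number of animals behind a library, the zygosity of the mutant mice or whether the kit keeps the strand of the RNA.

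MIWI, the product of Piwil1, is a PIWI protein that carries piRNAs, the small RNAs of the germline, from the pachytene stage of meiosis into the round spermatid. Round spermatids are the haploid cells that follow meiosis. They build the acrosome and the flagellum, and they store messenger RNAs that are translated only after transcription stops and histones give way to transition proteins and protamines.

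The deposited values behave as levels per length of transcript, since their smallest steps shrink with length, so genes can be compared with each other within a library. Log2 ratios are of MiwiR371W over WT, with 1 added to each value. With 1 library per genotype there is no replicate check and no test, and every difference describes these libraries. MiwiΔIns values stand beside the named genes, and both mutants share the WT library. In bulk RNA of sorted cells, fewer cells of a type and less RNA per cell cannot be told apart.

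Piwil1 itself (ENSMUSG00000029423.6, GRCm38 chr5:128702524-128755474, plus strand) was at 23.4 in MiwiR371W and 23.2 in MiwiΔIns, against 20.3 in WT (log2 0.20). A level summed over the gene does not show which allele was read, so it does not check the genotype. The sort was checked against cell markers. The 20 round spermatid markers summed to 4562 in MiwiR371W, against 5473 in WT. Transition protein 2 (Tnp2), a spermatid chromatin protein, was at 4265 in MiwiR371W, against 4085 in WT, and protamine 1 (Prm1) at 4989 in MiwiR371W, against 4043 in WT. Markers of Sertoli cells, the somatic nurse cells of the tubule, summed to 50.8 in MiwiR371W, against 60.3 in WT, over the 24 in the table. The steroidogenic genes that define Leydig cells, Star and Cyp17a1, were at 0.30 and 0.43 in MiwiR371W, against 0.24 and 0.30 in WT. Elongating spermatid markers, which include the protamines, summed to 26858 in MiwiR371W, against 25503 in WT.

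Depth could be read from the low values of long genes, which fell on even steps. One fragment was worth 0.0935 value × kb of effective length in MiwiR371W, against 0.0740 in WT. Effective length is transcript length less a fragment length, estimated at 300 bases in MiwiR371W and 350 in WT. Equal values over equal effective lengths thus rest on 0.791 times the fragments in MiwiR371W, and the factor differs in short transcripts. A value of 5 over 1 kb of effective length rested on about 53.5 fragments in MiwiR371W, against 67.6 in WT. A transcript of 1 kb has fewer. At such a level, counting alone gives a log2 ratio between 2 like libraries an SD of 0.28 at the MiwiR371W depth and 0.25 at the WT depth, which leaves out differences between animals, sorts and library preparations.

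Most genes lay close to the same level in both libraries. The median log2 ratio was 0.04, with quartiles of −0.23 and 0.30, 54.3% of genes were positive, and 76.9% were within 0.5 of 0. The size rule took a log2 ratio of at least 1 either way with at least 5 in the higher library. By it 127 genes (1.01%) were higher and 161 (1.28%) lower in MiwiR371W, 2.29% of all genes taken. When both libraries were scaled to equal sums without mitochondrial genes and the top 50, the split was 154 higher (54.8% of those past the rule, against 44.1%) and 127 lower. With a pseudocount of 5 in place of 1, 30 higher and 54 lower genes were left. A further 182 genes differed 2-fold or more but stayed under 5 in both libraries. Differences of 4-fold or more were seen for 12 higher and 16 lower genes.

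The genes past the size rule were of modest abundance. Those higher had a median of 9.30 in MiwiR371W, against 2.89 in WT, and those lower had a median of 5.01 in MiwiR371W, against 14.2 in WT. Between means of 5 and 10, 2.15% of genes were higher and 2.53% lower. Between 100 and 500 these shares were 0.221% and 0.147%, and 0 of 161 genes of 500 or more passed the rule either way. Genes past the rule also came from the shortest transcripts more often. Among genes averaging 5 or more, 3.10% were lower and 1.52% higher in the quintile of the shortest transcripts. In the next quintile 1.65% were lower and 0.976% higher, in quintile 3 0.852% and 0.913%, and in quintile 4 0.488% and 0.794%. In the longest these shares were 1.34% and 0.548%, so the share of lower genes did not fall steadily with length.

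**Figure D1:**
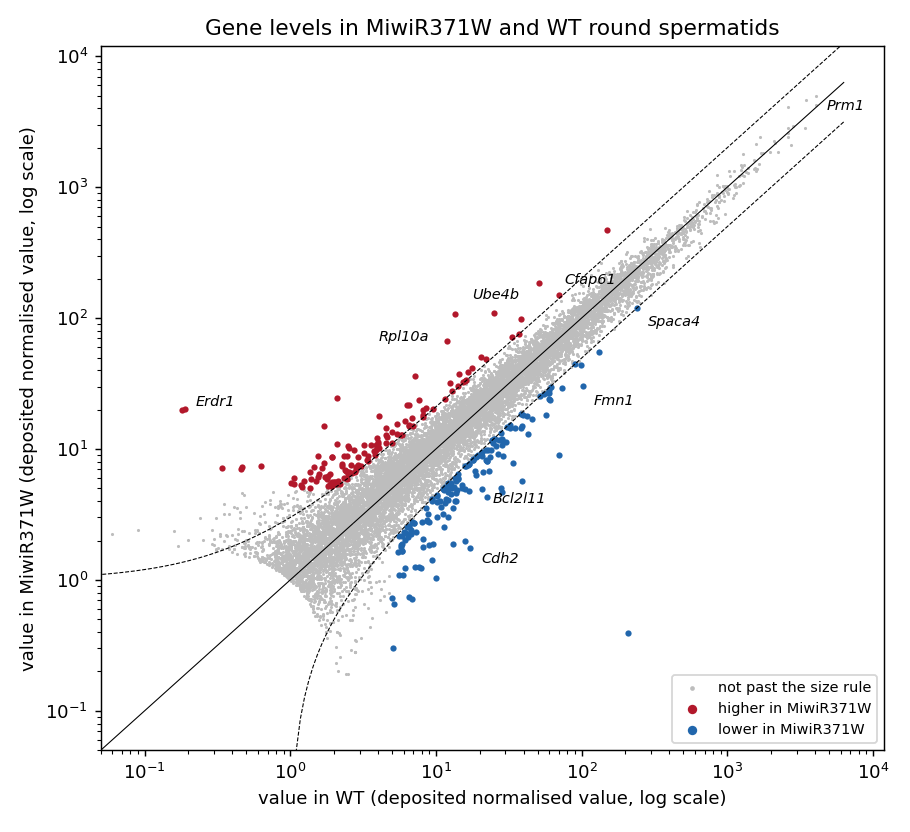
Value in MiwiR371W (vertical) against value in WT (horizontal) for each gene with a mean of at least 1, both on log scales in deposited normalised values; 1 gene is not shown. The solid line marks equal values and the dashed lines a 2-fold difference of value plus 1; genes past the size rule lie outside the dashed lines, mostly at values under 50.

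**Figure D2:**
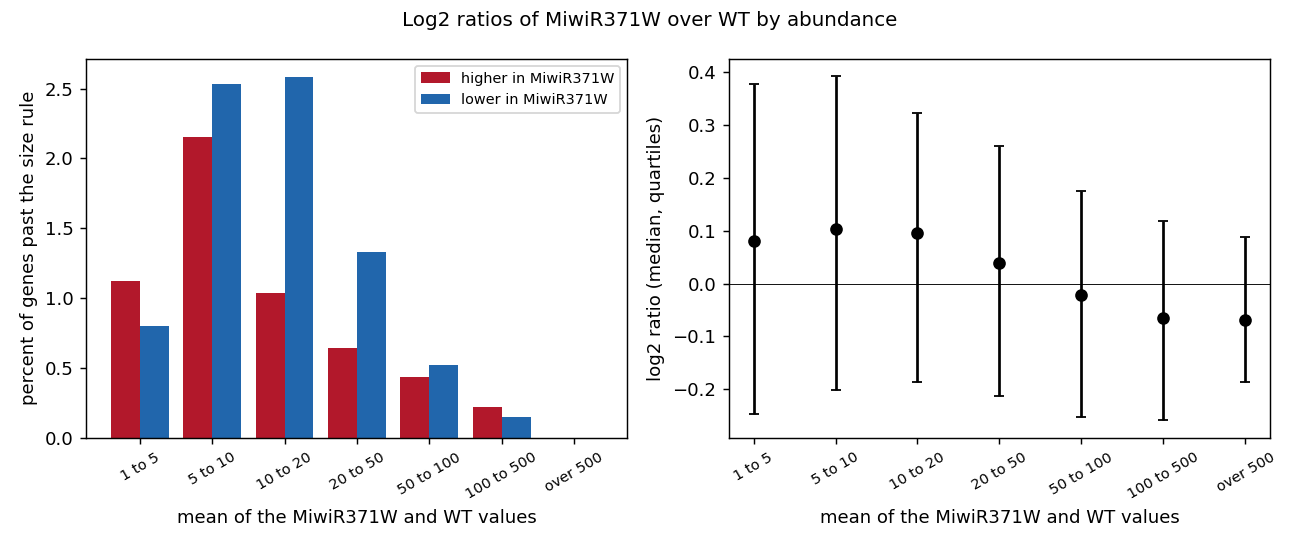
Left, percent of genes past the size rule in each class of mean value, higher and lower in MiwiR371W. Right, median log2 ratio of MiwiR371W over WT with quartiles across the genes of each class, which narrow from about 1 to 5 towards the genes over 500, where the share past the rule is 0.

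The largest increases of protein-coding genes with at least 10 in MiwiR371W include the following genes of protein turnover and membrane traffic. In lists of such genes, 1 of 57 ubiquitin ligases and 1 of 46 vesicle coat and Golgi tether genes were higher past the rule. Over all genes taken that share was 1.01%, and in the USP deubiquitinase and proteasome lists it was 0. Ube4b, a factor that lengthens ubiquitin chains (GRCm38 chr4:149328416-149426749, minus strand), was at 109.5 in MiwiR371W and 19.4 in MiwiΔIns, against 24.9 in WT (log2 2.09). Sec22c, a vesicle trafficking protein of the endoplasmic reticulum, was at 14.6 in MiwiR371W and 4.84 in MiwiΔIns, against 4.52 in WT (log2 1.497). Scfd1, which acts with syntaxins between the endoplasmic reticulum and the Golgi, was at 12.8 in MiwiR371W and 8.97 in MiwiΔIns, against 4.54 in WT (log2 1.32). Spns1, a lysosomal lipid transporter, was at 16.5 in MiwiR371W and 3.36 in MiwiΔIns, against 6.1 in WT (log2 1.30), and Manba, a lysosomal mannosidase, at 10.2 in MiwiR371W and 4.33 in MiwiΔIns, against 4.08 in WT (log2 1.15). Pigk, a subunit of the enzyme that attaches GPI anchors, was at 19.9 in MiwiR371W and 19.4 in MiwiΔIns, against 8.16 in WT (log2 1.19). Its MiwiΔIns value lay beside that of MiwiR371W, whereas for Ube4b, Sec22c and Manba the MiwiΔIns value lay at or near the WT value.

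A second set handles RNA, DNA or iron. Plrg1, a spliceosome component, was at 37.7 in MiwiR371W and 26.8 in MiwiΔIns, against 14.4 in WT (log2 1.33). Cpsf6, a subunit of the cleavage factor that chooses polyadenylation sites, was at 11.1 in MiwiR371W and 6.04 in MiwiΔIns, against 4.57 in WT (log2 1.11), and Ssb, the La protein that binds new RNA polymerase III transcripts, at 10.8 in MiwiR371W and 5.07 in MiwiΔIns, against 4.02 in WT (log2 1.24). Gtf3c4, a subunit of transcription factor TFIIIC, was at 20.7 in MiwiR371W and 9.29 in MiwiΔIns, against 8.56 in WT (log2 1.18). All 4 were higher in MiwiR371W than in both other libraries. The double-stranded RNA binding protein Stau1 was at 13.6 in MiwiR371W and 8.32 in MiwiΔIns, against 5.03 in WT (log2 1.27). The checkpoint kinase Atr was at 50.1 in MiwiR371W and 31.1 in MiwiΔIns, against 20.6 in WT (log2 1.24), and the mitotic and meiotic kinase Cdk1 at 17.1 in MiwiR371W and 6.69 in MiwiΔIns, against 6.83 in WT (log2 1.21). Fth1, the iron-storing ferritin heavy chain, was at 98.2 in MiwiR371W and 71 in MiwiΔIns, against 38.3 in WT (log2 1.34), and Mms19, which helps load iron-sulfur clusters, at 15.6 in MiwiR371W and 18.8 in MiwiΔIns, against 5.4 in WT (log2 1.37). For Mms19 the MiwiΔIns library was the highest of the 3.

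Of the remaining increases, Erdr1, a gene of the pseudoautosomal region, was at 20.2 in MiwiR371W and 6.03 in MiwiΔIns, against 0.19 in WT (log2 4.15). Its WT value rested on about 1 fragment, so the size of that ratio is loose. Gm21887 in the annotation matches 86.5% of the Erdr1 transcript. The ribosomal protein gene Rpl10a was at 67.1 in MiwiR371W and 24.99 in MiwiΔIns, against 11.97 in WT (log2 2.39), and has 4 near-identical copies in the annotation. Speer4c, of a multi-copy testis family, was at 35.96 in MiwiR371W and 11.9 in MiwiΔIns, against 7.23 in WT (log2 2.17), and Tmem254c, which shares its whole transcript with 2 other genes, at 10.6 in MiwiR371W and 4.59 in MiwiΔIns, against 2.48 in WT (log2 1.74). The secreted proteins Igfbp7 and Sparc are given below with the somatic markers. Fam53a (1.35), Gon4l (1.28), Dydc2 (1.19) and Ndufb6 (1.13) had the other log2 ratios named by the rule.

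Decreases included several genes of adhesion and the cytoskeleton. Cdh2, which encodes the adhesion protein N-cadherin, was at 1.75 in MiwiR371W and 13.3 in MiwiΔIns, against 17.3 in WT (log2 −2.73). Fmn1, a formin that nucleates actin filaments, was at 30.1 in MiwiR371W and 169 in MiwiΔIns, against 102 in WT (log2 −1.72), and Pfn3, a profilin of spermatids, at 29.2 in MiwiR371W and 77.03 in MiwiΔIns, against 73.2 in WT (log2 −1.29). MiwiR371W was the lowest library for all 3, and MiwiΔIns was the highest for Fmn1 and Pfn3. The beta tubulin gene Tubb6 was at 13.1 in MiwiR371W and 42.5 in MiwiΔIns, against 42.7 in WT (log2 −1.64), with MiwiΔIns and WT side by side. Plxnb2, a semaphorin receptor, was at 24.2 in MiwiR371W and 45.9 in MiwiΔIns, against 59.8 in WT (log2 −1.27). Tmsb15b1, an actin-binding thymosin, was at 4.73 in MiwiR371W and 21.9 in MiwiΔIns, against 28.6 in WT (log2 −2.37). Its copies Tmsb15b2, which shares its whole transcript, and Tmsb15l were at 32.3 in MiwiR371W, against 32.6 in WT (log2 −0.01), and 6.78 in MiwiR371W, against 3.33 in WT (log2 0.85).

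Further decreases named by the rule were of genes with varied roles. Bcl2l11, the gene of BIM, which promotes cell death, was at 4.98 in MiwiR371W and 14.1 in MiwiΔIns, against 20.6 in WT (log2 −1.85). Its list of BCL2 family and caspase genes had 15 of 19 positive and a median of 0.24, with Bcl2l12 past the rule upwards. Kcnab2 and Kcnc1, a beta subunit and a pore subunit of voltage-gated potassium channels, were at 7.85 in MiwiR371W, against 33.8 in WT (log2 −1.97), and 4.55 in MiwiR371W, against 12.8 in WT (log2 −1.31). Plcb4, a phospholipase C, was at 8.26 in MiwiR371W and 15.7 in MiwiΔIns, against 22.1 in WT (log2 −1.32), and Eef2k, the kinase of elongation factor 2, at 5.14 in MiwiR371W and 9.63 in MiwiΔIns, against 13.2 in WT (log2 −1.21). The transcription factor Klf5 was at 11.3 in MiwiR371W and 28.3 in MiwiΔIns, against 30.4 in WT (log2 −1.36), with the MiwiΔIns value close to WT. In mitochondria, the prohibitin Phb was at 14.4 in MiwiR371W and 38.6 in MiwiΔIns, against 34.8 in WT (log2 −1.22), the inner membrane translocase subunit Timm17b at 4.84 in MiwiR371W and 9.37 in MiwiΔIns, against 13.9 in WT (log2 −1.35), and Oxct1, which lets cells use ketone bodies, at 11.7 in MiwiR371W and 23.7 in MiwiΔIns, against 28.3 in WT (log2 −1.21). Impg2 and Sag, both best known from the retina, were at 6.83 in MiwiR371W, against 23.01 in WT (log2 −1.62), and 3.17 in MiwiR371W, against 11.2 in WT (log2 −1.55). The other decreases named by the rule were Blcap (−1.54), Dcakd (−1.35), Cfhr3 (−1.35), the cytokine Mif (−1.31), Hdhd2 (−1.21), Slc31a2 (−1.19) and Uhrf1bp1 (−1.19).

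**Figure D3:**
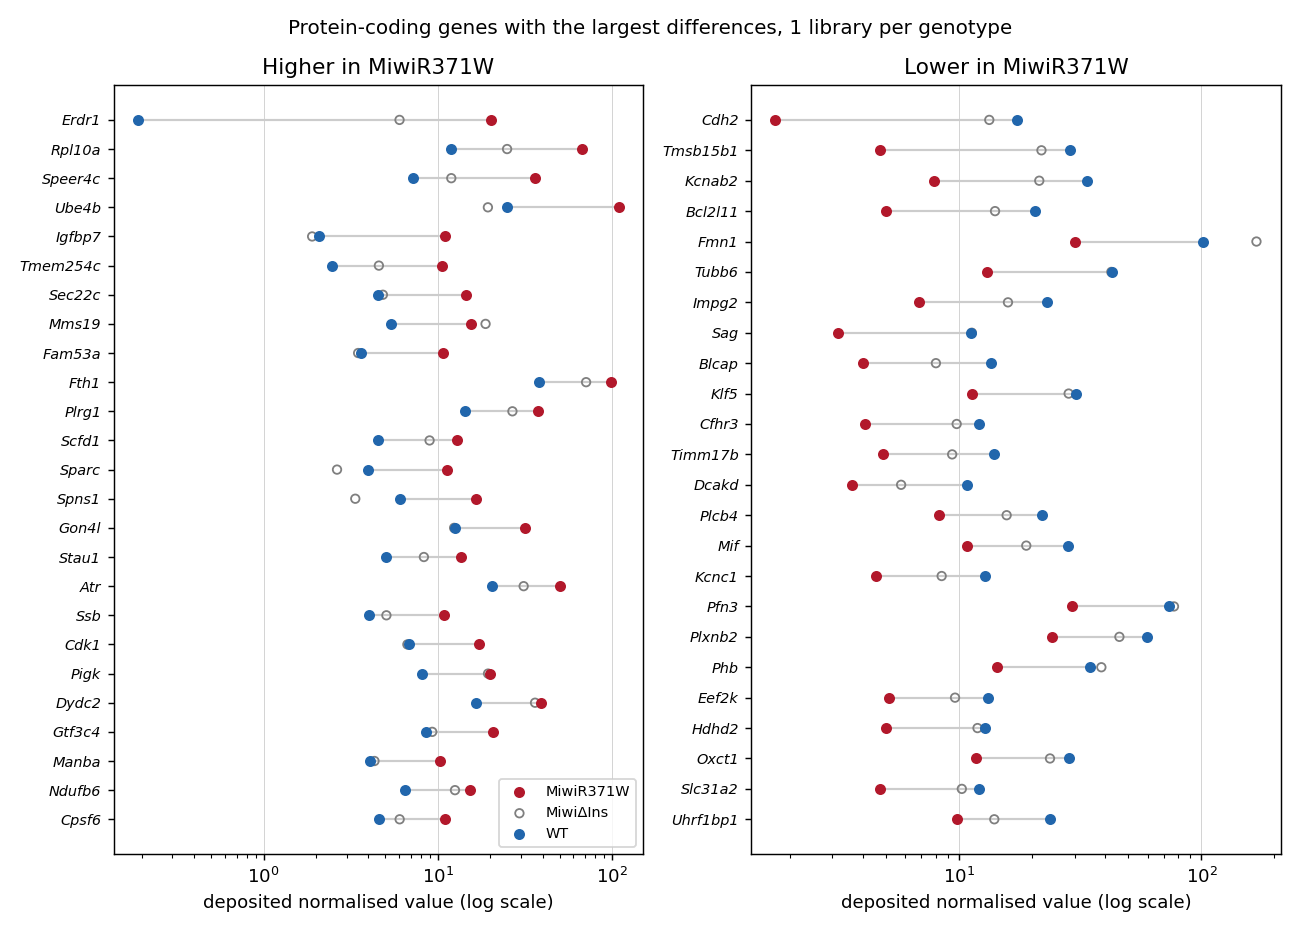
Deposited normalised values (log scale) of the protein-coding genes with the largest ratios and at least 10 in the higher library, in MiwiR371W, MiwiΔIns and WT; left, genes higher, and right, genes lower in MiwiR371W than in WT. Each point is 1 library; the MiwiΔIns circle lies near WT for genes such as Igfbp7, Cdk1 and Tubb6 and near MiwiR371W for Pigk and Dydc2.

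Genes of the acrosome membrane and of sperm-egg fusion lay mostly below WT. 18 of the 21 log2 ratios were negative, and the list's median was −0.50 against 0.04 for all genes taken. The size rule was passed by 1 member, Spaca4, a GPI-anchored protein of the acrosome, at 119 in MiwiR371W and 223 in MiwiΔIns, against 239 in WT (log2 −1.002). Spaca4 lay at the edge of the rule and dropped out of it with a pseudocount of 5 (log2 −0.98), upper quartile scaling (−0.998), equal sums (−0.96), equal sums over fewer genes (−0.95) or correction for GC and length (−0.89). Izumo1, the sperm protein that binds the egg receptor Juno, was at 63.4 in MiwiR371W and 102 in MiwiΔIns, against 98.7 in WT (log2 −0.63), and Izumo2 at 65.2 in MiwiR371W and 128 in MiwiΔIns, against 117 in WT (log2 −0.83). Fam209, an inner nuclear membrane protein beneath the acrosome, was at 297 in MiwiR371W and 620.1 in MiwiΔIns, against 534 in WT (log2 −0.84). Spaca6, listed as 4930546H06Rik and needed for fusion, had a log2 ratio of −0.56, and Dcst1 was at 72.7 in MiwiR371W, against 108 in WT (log2 −0.56). These genes were lower in MiwiR371W than in both other libraries. The fertilin subunits Adam2 and Adam1b went the other way, at 172 in MiwiR371W, against 144 in WT (log2 0.25), and 122 in MiwiR371W, against 109 in WT (log2 0.16). The round spermatid markers, some of which are in the acrosome lists, were lower too, with 4 of 20 positive and a median of −0.48, and the part of cell makeup in the acrosome result was not tested. The promoters of Spaca4, the member past the rule, and Izumo1, the best-known fusion protein, are shown. They run from 250 bases before to 50 bases after the start site (RefSeq, GRCm38.p6), chr7:45725767-45726066 on the minus strand for Spaca4 and chr7:45621561-45621860 on the plus strand for Izumo1. Capitals mark matches on either strand to TGACGTCA, the element bound by CREM and CREB, and to GAANNTTC, a pair of heat shock units.
Spaca4: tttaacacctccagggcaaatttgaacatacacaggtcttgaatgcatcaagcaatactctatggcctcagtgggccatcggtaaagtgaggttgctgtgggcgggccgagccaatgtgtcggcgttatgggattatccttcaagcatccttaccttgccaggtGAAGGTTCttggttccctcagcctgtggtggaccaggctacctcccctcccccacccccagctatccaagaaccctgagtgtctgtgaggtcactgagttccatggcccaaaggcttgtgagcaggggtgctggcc
Izumo1: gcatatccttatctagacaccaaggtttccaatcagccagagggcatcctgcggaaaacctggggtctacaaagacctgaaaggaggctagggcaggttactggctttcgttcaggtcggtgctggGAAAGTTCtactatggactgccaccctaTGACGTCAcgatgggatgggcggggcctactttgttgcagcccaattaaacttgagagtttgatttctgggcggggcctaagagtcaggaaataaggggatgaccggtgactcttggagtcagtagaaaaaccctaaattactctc

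The CRE lay at −96 in the Izumo1 window, and GAANNTTC at −86 in the Spaca4 window and at −124 in the Izumo1 window. Of all promoter windows 1.79% held TGACGTCA and 7.86% held GAANNTTC, and of the windows of the genes taken 3.12% and 6.74%. Among the windows of the acrosome membrane list 1 of 17 held the first and 2 of 17 the second. TGACGTCA was in 1 of 105 windows of higher genes and 4 of 116 windows of lower genes past the rule. A match is a description of these letters, and no occupancy was measured.

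The soluble contents of the acrosome differed less. Of 24 members 5 were positive, and the median was −0.15. The lysozyme-like genes Lyzl1, Lyzl6 and Lyzl4 had log2 ratios of −0.72, −0.65 and −0.55, and the sperm hyaluronidase Spam1 −0.49. The protease proacrosin (Acr) had −0.16, its binding protein Acrbp −0.08, and the abundant secretory protein Crisp2 0.09. Genes that shape the acrosome from the Golgi had a median of 0.08 over 28 members. Among them the Golgi protein Golga3 (0.48) and Gopc (0.65) were positive, and the cytoskeletal calyx genes Ccin (−0.60) and Actl7a (−0.59) negative. None of these passed the size rule.

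Members of the CatSper complex, the calcium channel of the sperm tail, divided by subunit. Of the 4 pore subunits, Catsper1 was at 119 in MiwiR371W, against 174 in WT (log2 −0.54), Catsper3 at 59.9 in MiwiR371W, against 79.3 in WT (log2 −0.40), and Catsper4 at 79.2 in MiwiR371W, against 125 in WT (log2 −0.65), while Catsper2 was at 246 in MiwiR371W, against 204 in WT (log2 0.27). Efcab9, the calcium sensor of the complex, was at 199 in MiwiR371W, against 291 in WT (log2 −0.55). The large auxiliary subunits were on the other side, with log2 ratios of 0.41 for Catsperb, 0.25 for Catsperd, 0.33 for Catsperg1 and 0.38 for Catsperg2. Lrrc52, the partner of the sperm potassium channel Kcnu1, was at 30.2 in MiwiR371W and 59.7 in MiwiΔIns, against 59.6 in WT (log2 −0.96), just short of the size rule, and Kcnu1 at −0.29. The median over 17 members was 0.21, and over those averaging 5 or more it was 0.0013. The rule was passed by 0 of the 17, against 2.29% of all genes taken.

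Testis-specific serine kinases, which phosphorylate proteins of the maturing spermatid, also differed among themselves. Tssk1 was at 203 in MiwiR371W, against 301 in WT, Tssk2 at 222 in MiwiR371W, against 343 in WT, and Tssk4 at 80.3 in MiwiR371W, against 134 in WT, while Tssk3 was at 94.8 in MiwiR371W, against 91.1 in WT, and Tssk6 at 209 in MiwiR371W, against 175 in WT. Log2 ratios were −0.57, −0.63 and −0.73 for the first 3 and 0.06 and 0.25 for the other pair. The phosphatase genes Dusp21 and Dusp13 had −0.84 and −0.62. Dusp3, a phosphatase outside the spermatid list, passed the rule at 28.4 in MiwiR371W and 57.9 in MiwiΔIns, against 59.5 in WT (log2 −1.04). Transcription regulators of haploid cells had a median of −0.11, with 8 of 24 positive. Sox5, whose short form is made in spermatids, was at 131 in MiwiR371W and 236 in MiwiΔIns, against 221 in WT (log2 −0.75), and Fhl5, the coactivator of CREM, at 137 in MiwiR371W and 273 in MiwiΔIns, against 192 in WT (log2 −0.48). CREM itself (Crem), the main activator of haploid genes, was at 365 in MiwiR371W, against 406 in WT (log2 −0.15). Brwd1, a bromodomain protein, and Mybl1, the activator of pachytene genes, were on the positive side (0.83 and 0.69).

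**Figure D4:**
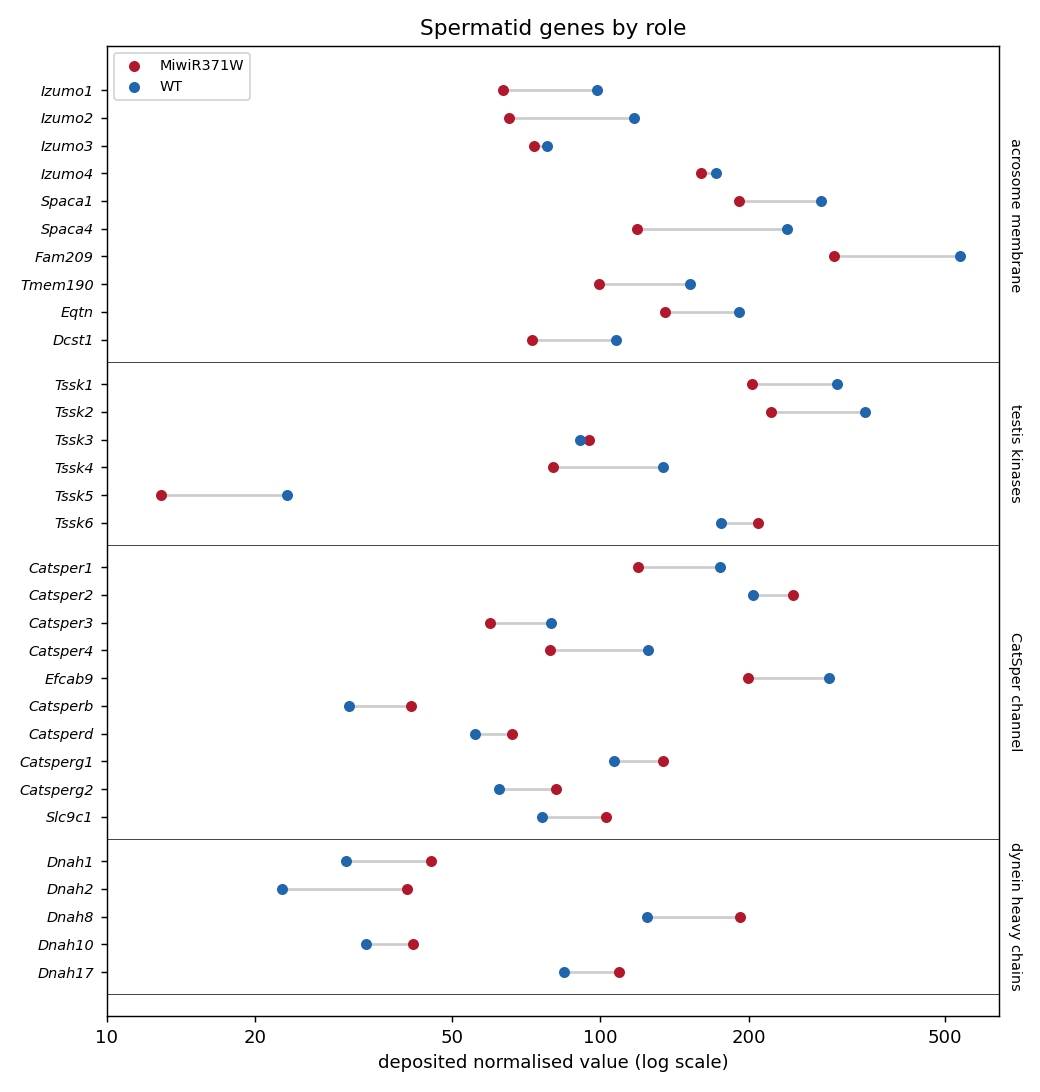
Deposited normalised values (log scale) of spermatid genes by role, in MiwiR371W and WT, 1 library each. The acrosome membrane genes shown, Tssk1, Tssk2, Tssk4, Tssk5 and the CatSper genes Catsper1, Catsper3, Catsper4 and Efcab9 lie lower in MiwiR371W. The dynein heavy chains and auxiliary CatSper subunits shown lie higher. Genes were picked from longer lists, and Dnah9, Adam2 and Adam1b, which went the other way, are not shown.

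Genes of the axoneme, the microtubule core of the flagellum, lay on the positive side. Of 37 members 24 were positive, with a median of 0.19 and 0 past the size rule, against 2.29% of all genes taken. The dynein heavy chains, the motors of flagellar beating, were at 40.5 in MiwiR371W, against 22.6 in WT (log2 0.81) for Dnah2, 192 in MiwiR371W, against 124 in WT (log2 0.62) for Dnah8, and 45.4 in MiwiR371W, against 30.5 in WT (log2 0.56) for Dnah1. Dnah17 and Dnah10 had 0.36 and 0.31, and Dnah9, at a level under 4 in both libraries, −0.25. The radial spoke gene Rsph1 was at 1229.7 in MiwiR371W and 1263 in MiwiΔIns, against 849.6 in WT (log2 0.53), so its MiwiΔIns value matched that of MiwiR371W more closely than that of WT. The central pair genes Spag6 and Hydin had 0.60 and 0.41. On the negative side was Ift20, a Golgi-linked transport protein (−0.56).

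Cilia and flagella associated (Cfap) genes had a median of 0.14, with 19 of 29 positive. Cfap61, a radial spoke protein listed as 4930529M08Rik, passed the size rule at 149.9 in MiwiR371W and 81.1 in MiwiΔIns, against 70.5 in WT (log2 1.08). Its exons overlap those of Crnkl1 on the opposite strand, which was at 14.8 in MiwiR371W, against 16.03 in WT. Cfap43 (listed as Wdr96) and Cfap70 (Ttc18) had 0.57 and 0.52. At the other end, Cfap100 (Ccdc37) was at 47.4 in MiwiR371W, against 95.4 in WT (log2 −0.99). Outer dense fibre and mitochondrial sheath genes leaned negative, with 5 of 20 positive and a median of −0.14. In that list Odf3 was at 129.9 in MiwiR371W, against 250.3 in WT (log2 −0.94), and the tektins Tekt2, Tekt4 and Tekt5 had −0.58, −0.40 and −0.56. Fibrous sheath genes had a median of −0.07, with Cabyr at −0.56 and Akap4, the main protein of the sheath, at 0.16.

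Genes that compact the sperm nucleus were close to WT as a list (19 members, median 0.06), and 2 alternatives turned the sign of that median. The protamines differed in sign. Prm1 and Prm2 had 0.30 and 0.41, and Prm3 was at 243 in MiwiR371W, against 376 in WT (log2 −0.63). The transition protein genes Tnp1 and Tnp2 had 0.10 and 0.06, and the spermatid linker histone Hils1 −0.51. Over 40 histone genes the median was −0.23, with 1 member past the rule upwards, Hist1h2aa, at 5.56 in MiwiR371W and 0.62 in MiwiΔIns, against 1.94 in WT (log2 1.16), and 1 downwards, Gm14484, at 8.28 in MiwiR371W and 18.4 in MiwiΔIns, against 18.01 in WT (log2 −1.03). Hist1h2aa rested on about 6 fragments or fewer in each library. Gm14484 (H2al1e in the annotation) is 1 of a set of near-identical H2A variants on the X chromosome, and its copy Gm14482 (H2al1g) was at 21.04 in MiwiR371W, against 15.6 in WT (log2 0.41), so how reads were divided between them is uncertain.

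Transcripts of the piRNA pathway were mostly positive, 26 of 32, with a median of 0.25 and 0 past the size rule (2.29% of all genes taken). Tdrd1, a scaffold of the germ granule, was at 11.5 in MiwiR371W and 10.7 in MiwiΔIns, against 5.96 in WT (log2 0.85). Tdrd9 and Tdrd5, a helicase and a Tudor protein of the same granules, had 0.56 and 0.51, and the protein arginine methyltransferase Prmt5, which makes the marks that Tudor proteins bind, 0.47. Tdrd6, the Tudor protein of the chromatoid body, was at 369.9 in MiwiR371W, against 304 in WT (log2 0.28), and the helicase Ddx4 at 298 in MiwiR371W, against 233 in WT (log2 0.35). Gtsf1l, a paralogue of the PIWI cofactor Gtsf1, was the lowest member, at 288 in MiwiR371W and 761 in MiwiΔIns, against 522 in WT (log2 −0.85), while Gtsf1 had −0.08.

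Stress lists differed among themselves. Oxidative stress genes had 14 of 29 positive (median −0.02), DNA damage and p53 targets 5 of 12 (−0.06) and interferon response genes 3 of 8 (−0.02). Of 27 immediate early genes, which respond within minutes to stimuli, 19 were positive, with a median of 0.23, while those in the table summed to 417 in MiwiR371W, against 459 in WT. Fos, a subunit of AP-1, was at 5.72 in MiwiR371W and 0.91 in MiwiΔIns, against 1.24 in WT (log2 1.58). Its partner Junb was at 5.44 in MiwiR371W and 1.87 in MiwiΔIns, against 1.89 in WT (log2 1.16), and both passed the size rule. With a pseudocount of 5 both fell short of it (0.78 and 0.60), and the WT value of Fos rested on about 7.8 fragments. Zfp36 was at 4.54 in MiwiR371W, against 1.35 in WT, Ier3 at 2.97 in MiwiR371W, against 0.45 in WT, and Egr1 at 4.68 in MiwiR371W, against 2.26 in WT. The more abundant Klf4, Egr3 and Nr4a1 lay on the other side, with log2 ratios of −0.50, −0.56 and −0.25, and the median was −0.13 over those averaging 5 or more. Exons of Junb overlap Prdx2 on the opposite strand, itself at 4.03 in MiwiR371W, against 1.31 in WT. Heat shock genes had a median of 0.21, with 25 of 31 positive. Hspb1, a small heat shock protein, passed the rule at 8.85 in MiwiR371W and 3.58 in MiwiΔIns, against 3.41 in WT (log2 1.16). It fell short of the rule with a pseudocount of 5 (0.72). The constitutive chaperone Hspa8 was at 39.6 in MiwiR371W, against 21.8 in WT (log2 0.83), while the inducible Hspa1a was at 1.77 in MiwiR371W, against 2.16 in WT. The promoters of Fos and Hspb1 are shown as those of members past the rule (RefSeq, GRCm38.p6, chr12:85473640-85473939 and chr5:135887669-135887968, both on the plus strand). Capitals mark TATAAA and GAANNTTC on either strand.
Fos: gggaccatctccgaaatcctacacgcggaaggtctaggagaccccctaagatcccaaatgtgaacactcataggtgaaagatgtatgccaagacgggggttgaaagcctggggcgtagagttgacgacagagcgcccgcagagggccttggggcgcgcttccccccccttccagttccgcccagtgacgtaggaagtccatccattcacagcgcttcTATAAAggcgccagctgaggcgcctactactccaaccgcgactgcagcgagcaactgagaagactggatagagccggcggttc
Hspb1: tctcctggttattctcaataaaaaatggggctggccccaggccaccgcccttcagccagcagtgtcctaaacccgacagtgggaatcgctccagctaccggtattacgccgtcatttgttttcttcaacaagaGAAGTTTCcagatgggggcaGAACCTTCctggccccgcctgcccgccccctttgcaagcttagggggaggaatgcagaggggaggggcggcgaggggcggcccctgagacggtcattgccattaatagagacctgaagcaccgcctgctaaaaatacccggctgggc

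TATAAA lay at −33 in the Fos window, and GAANNTTC at −117 and −97 in the Hspb1 window. TATAAA was in 6 of 24 windows of the immediate early list, 13.6% of all windows and 7.35% of those of the genes taken. GAANNTTC was in 12 of 33 windows of the heat shock list (36.4%). It was in 7.86% of all windows and 6.74% of those of the genes taken. Among genes past the rule, GAANNTTC was in 10 of 105 windows of higher and 8 of 116 windows of lower genes. TATAAA was in 7 and 15 of these.

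Chaperones of the endoplasmic reticulum had a median of 0.27, with 27 of 36 positive and 0 past the rule (2.29% of all genes taken). Hspa5, the lumenal HSP70, was at 273 in MiwiR371W, against 188 in WT (log2 0.54), the protein disulfide isomerase P4hb at 9.74 in MiwiR371W, against 4.73 in WT (log2 0.91), and the co-chaperone Dnajb11 at 43.8 in MiwiR371W, against 27.8 in WT (log2 0.64). The testis-specific isomerase Pdilt had −0.40 and the calmegin gene Clgn 0.21. Eif2ak1, the haem-regulated kinase of the integrated stress response, passed the rule at 20.1 in MiwiR371W and 13.4 in MiwiΔIns, against 9.54 in WT (log2 1.003), and its exons overlap 2 genes on the opposite strand. Eif2ak1 dropped out of the rule with a pseudocount of 5 (0.79), median ratio scaling (0.978) and correction for GC and length (0.996).

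Markers of blood vessels were mostly at low levels in both libraries. All 18 endothelial markers in the table summed to 59.4 in MiwiR371W, against 33.0 in WT, 16 of them were positive, and their median log2 ratio was 0.45. The 8 with a mean of at least 1 had a median of 0.79, which lay between 0.27 and 1.31 under the alternatives. Past the size rule were Igfbp7, a secreted growth factor binding protein, at 10.99 in MiwiR371W and 1.9 in MiwiΔIns, against 2.08 in WT (log2 1.96), and Sparc, a secreted matrix protein, at 11.3 in MiwiR371W and 2.64 in MiwiΔIns, against 3.99 in WT (log2 1.31). With a pseudocount of 5 Sparc fell short of the rule (0.86). Cldn5, an endothelial junction gene, and Sox18, a vessel transcription factor, reached a mean of 1 only through MiwiR371W, at 2.2 in MiwiR371W, against 0.4 in WT, and 1.71 in MiwiR371W, against 0.34 in WT. The most abundant marker, the transcription factor Sox17, was at 17.5 in MiwiR371W, against 16.2 in WT (log2 0.10). The defining markers Pecam1 and Cdh5 were under the mean of 1, at 1.32 in MiwiR371W, against 0.58 in WT, and 1.3 in MiwiR371W, against 0.65 in WT. Exons of Igfbp7 overlap those of Polr2b on the opposite strand, which was at 5.65 in MiwiR371W, against 10.4 in WT. The part of endothelial cells in the increases of Igfbp7 and Sparc was not tested.

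Other somatic markers were mixed. Of 9 peritubular and smooth muscle markers with a mean of at least 1, all but 1 were positive, with a median of 0.40. Without that limit 18 of 22 were positive, and the median was 0.25. Yet the sum over those 22 was 226 in MiwiR371W, against 312 in WT, with Actg2 alone at 147 in MiwiR371W, against 257 in WT. Smooth muscle actin (Acta2) passed the rule at 5.53 in MiwiR371W and 2.17 in MiwiΔIns, against 1.01 in WT (log2 1.70), but not with a pseudocount of 5 (0.81). Of the Sertoli markers with a mean of at least 1, positive ratios were seen for 3 of 12, and the median was −0.36. With no limit on the mean, 8 of 24 were positive, and the median was −0.095. Vimentin (Vim), a filament protein of many somatic cells, passed the rule at 6.1 in MiwiR371W and 1.45 in MiwiΔIns, against 1.55 in WT (log2 1.48), but not with a pseudocount of 5 (0.76). Sertoli-derived clusterin (Clu) was at 13.9 in MiwiR371W, against 19.6 in WT, and Cst9 at 2.0 in MiwiR371W, against 4.15 in WT. Macrophage and leukocyte markers summed to 27.2 in MiwiR371W, against 17.9 in WT, over the 17 in the table, with the lipoprotein gene Apoe at 10.6 in MiwiR371W, against 4.92 in WT. Meiotic cells gave the synaptonemal genes Sycp3 and Sycp1 at 32.8 in MiwiR371W, against 32.9 in WT, and 27.02 in MiwiR371W, against 24.5 in WT, and the 35 pachytene and diplotene markers had a median of 0.11, with Cdk1 the member past the rule. Leydig markers summed to 59.3 in MiwiR371W, against 68.9 in WT, over the 12 in the table, and spermatogonia markers had 8 of 14 positive. The table's smallest value is 0.01, so it can list no marker at 0. The part of other cells in the results above was not tested.

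Of the housekeeping lists, mitochondrially encoded messenger RNAs were all positive, 12 of 12, with a median of 0.46. The mitochondrial 16S ribosomal RNA gene mt-Rnr2 passed the rule at 75.4 in MiwiR371W and 45.5 in MiwiΔIns, against 37.2 in WT (log2 1.001), and the 12S gene mt-Rnr1 was at 59.6 in MiwiR371W and 46.8 in MiwiΔIns, against 46.7 in WT. Cytosolic ribosomal protein genes centred on WT (median −0.03, 87 members), with 2 past the rule, Rpl10a and Rps3a2, which was at 5.44 in MiwiR371W and 0.97 in MiwiΔIns, against 1.07 in WT (log2 1.64). Rps3a2 shares its whole transcript with the far more abundant Rps3a1, at 69.4 in MiwiR371W, against 56.7 in WT. Mitochondrial ribosomal genes (−0.01), nuclear-encoded complex I subunits (−0.06) and proteasome subunits (0.10) had medians close to that of all genes. USP deubiquitinases (0.24, 34 of 47 positive), chromatin modifiers (0.17, 54 of 74) and endosomal HOPS, CORVET and retromer subunits (0.24, 15 of 20) were somewhat above it. The histone demethylase Kdm4a passed the rule downwards, at 5.13 in MiwiR371W and 7.34 in MiwiΔIns, against 11.6 in WT (log2 −1.04).

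Members of other lists also passed the rule. The endosomal GTPase Rab4a was at 7.34 in MiwiR371W and 0.45 in MiwiΔIns, against 0.47 in WT (log2 2.50), in a list of 34 Rab genes with a median of 0.14. The WT value of Rab4a rested on about 4.6 fragments. Lars2, the mitochondrial leucyl-tRNA synthetase, was at 6.69 in MiwiR371W and 3.91 in MiwiΔIns, against 1.36 in WT (log2 1.70), and fell short of the rule with a pseudocount of 5 (0.88). The autophagy gene Gabarapl2 was at 12.9 in MiwiR371W and 12 in MiwiΔIns, against 5.86 in WT (log2 1.02), the RNA polymerase subunit Polr2k at 9.0 in MiwiR371W and 11.04 in MiwiΔIns, against 3.81 in WT (log2 1.06), and the BCL2 relative Bcl2l12 at 12.7 in MiwiR371W and 4.14 in MiwiΔIns, against 5.77 in WT (log2 1.02). Downwards, Adam29, a testis member of the ADAM family, was at 11.7 in MiwiR371W and 23.8 in MiwiΔIns, against 24.5 in WT (log2 −1.003), and Igfbp4, a secreted growth factor binding protein, at 0.74 in MiwiR371W and 1.24 in MiwiΔIns, against 6.52 in WT (log2 −2.11). Gabarapl2 (0.996) and Bcl2l12 (0.993) fell short of the rule with median ratio scaling, and Adam29 with upper quartile scaling (−0.999), and all 3 did so with a pseudocount of 5 (0.72, 0.72 and −0.82). The Speer family of testis-specific multi-copy genes had 10 of 12 members positive and a median of 0.46. Speer7-ps1 overlaps Speer4c on the opposite strand and was at 7.03 in MiwiR371W and 1.04 in MiwiΔIns, against 0.46 in WT (log2 2.46).

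The most abundant transcripts of the cells lay close to WT. Of the 15 with the highest WT values, mt-Atp8, a mitochondrial ATP synthase subunit, had the largest log2 ratio (0.66) and Smcp, a protein of the sperm mitochondrial capsule, the lowest (−0.37). The sperm lactate dehydrogenase Ldhc was at 2263 in MiwiR371W and 2780.2 in MiwiΔIns, against 2094 in WT (log2 0.11), and the fibre protein Odf2 at 2579 in MiwiR371W and 2723 in MiwiΔIns, against 2598 in WT (log2 −0.01). Pabpc1, which binds poly(A) tails, was at 2933 in MiwiR371W and 3039.9 in MiwiΔIns, against 2849 in WT (log2 0.04), and Ybx2, which holds stored messenger RNAs of spermatids in translational silence, at 2415 in MiwiR371W and 2141 in MiwiΔIns, against 2623 in WT (log2 −0.12). The polyubiquitin gene Ubb was at 2856 in MiwiR371W and 3394 in MiwiΔIns, against 3447 in WT (log2 −0.27).

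Lists of 4 kinds of RNA and translation factors held no member past the rule. Of all genes taken 2.29% passed it, a share at which lists this short hold few such members. Medians were 0.15 for 32 deadenylation and decapping genes, 0.12 for 42 initiation factors, 0.12 for 46 splicing factors and 0.11 for 49 DEAD and DEAH helicases. Spermatid families leaned the other way. SPATA genes had 9 of 28 positive and a median of −0.21, testis-expressed (Tex) genes 15 of 36 and −0.16, and ADAM proteases 9 of 24 and −0.17. Manchette genes, which shape the sperm head, centred on 0.02, and elongating spermatid markers on −0.04. Among 227 zinc finger genes with a median of 0.12, Zfp777 was past the rule upwards (1.07) and Zfp125 (−1.17) and Zfp688 (−1.01) downwards. Of 48 actin regulators 31 were positive (median 0.11), and the 3 past the rule, Fmn1, Pfn3 and Tmsb15b1, were all lower. In 27 junction genes (median −0.14) Cdh2 was the member past it.

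**Figure D5:**
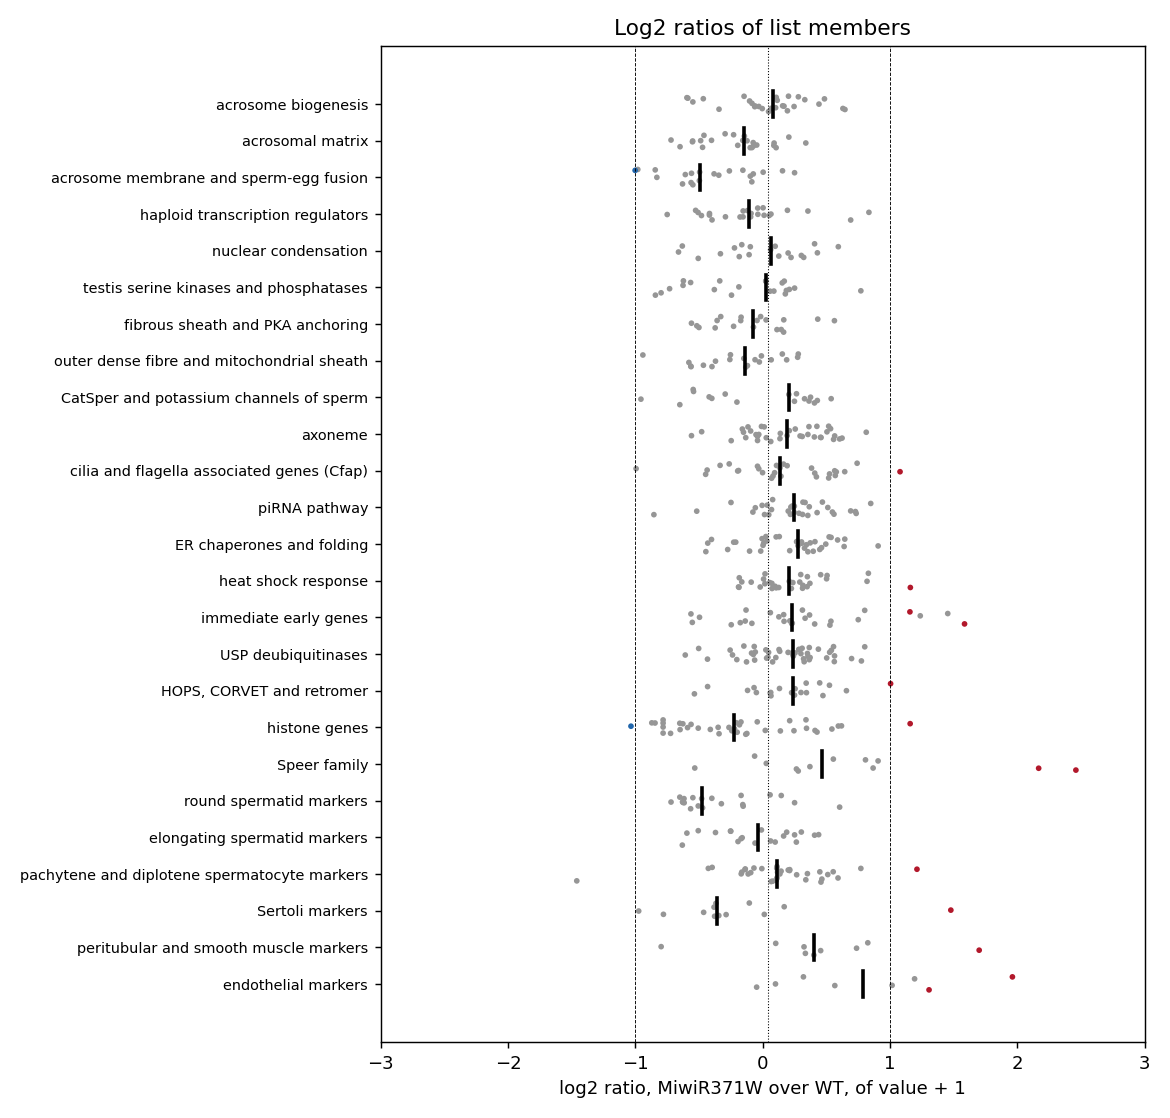
Log2 ratios of MiwiR371W over WT (horizontal) for the members of selected gene lists; each point is a gene, red or blue where it passed the size rule, black bars are list medians, the dotted line is the median of all genes taken (0.04) and dashed lines mark 2-fold. Acrosome membrane genes and round spermatid markers lie mostly left, and Speer genes and endothelial markers mostly right.

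Gene classes differed in how often their members passed the size rule. Over all genes taken 1.01% were higher and 1.28% lower. Antisense genes were higher in 7 (1.74%) and lower in 20 (4.98%) of 402 cases (median −0.16), lincRNA genes in 8 (1.95%) and 15 (3.66%) of 410, and pseudogenes in 13 (2.91%) and 18 (4.04%) of 446. Of 11062 protein-coding genes 91 (0.823%) were higher and 103 (0.931%) lower. The median of 456 X-linked genes was −0.05, with 2 higher (0.439%) and 12 lower (2.63%), and that of 31 Y-linked genes −0.25, with 3 positive. Among genes averaging 5 or more, log2 ratios also moved with base composition. The median was 0.13 in the GC-poorest quintile of transcripts and −0.07 in the GC-richest.

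Among noncoding RNAs, the lincRNA Gm11691 was at 17.9 in MiwiR371W and 4.44 in MiwiΔIns, against 4.07 in WT (log2 1.89), and the antisense RNA 1700006D18Rik at 21.6 in MiwiR371W and 27.96 in MiwiΔIns, against 6.3 in WT (log2 1.63). 1700022K14Rik was at 19.7 in MiwiR371W and 4.48 in MiwiΔIns, against 0.18 in WT (log2 4.13), near the values of Erdr1 in MiwiR371W and WT. Lower were the antisense RNAs Gm14285, at 1.99 in MiwiR371W and 11.5 in MiwiΔIns, against 15.9 in WT (log2 −2.50), 1700081H22Rik, at 1.03 in MiwiR371W and 13.7 in MiwiΔIns, against 10.03 in WT (log2 −2.44), and Gm12204, at 4.29 in MiwiR371W and 13.7 in MiwiΔIns, against 22.5 in WT (log2 −2.15). The nuclear RNA Malat1 was at 4.91 in MiwiR371W and 14.7 in MiwiΔIns, against 15.9 in WT (log2 −1.52). Rn7sk, the RNA that holds the elongation factor P-TEFb, was at 27.6 in MiwiR371W and 16.2 in MiwiΔIns, against 12.9 in WT (log2 1.04). TUG1_3, an annotated stretch of the lincRNA Tug1, was at 8.98 in MiwiR371W and 10.3 in MiwiΔIns, against 70.4 in WT (log2 −2.84). Gm26924, whose whole transcript matches the annotated gene CT010467.1, was at 186 in MiwiR371W and 119 in MiwiΔIns, against 51.1 in WT (log2 1.84).

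Several of the largest ratios belonged to genes with near-identical copies or overlapping genes. Exons overlapped another gene on the opposite strand for 29.1% of higher and 29.8% of lower genes, against 29.3% of all genes taken. Of the 93 named genes past the size rule, 26 had another annotated gene that matched at least 50% of their transcript at 95% identity or more. Copies were sought for these 93 genes only, so no share over all genes stands beside that count. Erdr1, Fth1, Mif and Phb were among them. Gm7666, which matches 85.8% of the Phb transcript, was at 4.6 in MiwiR371W and 22.97 in MiwiΔIns, against 13.7 in WT (log2 −1.39). Gm1848, a pseudogene with the whole transcript of Atp1b3, a sodium pump subunit, was at 0.39 in MiwiR371W and 0.82 in MiwiΔIns, against 208 in WT (log2 −7.23), while Atp1b3 was at 153 in MiwiR371W and 158 in MiwiΔIns, against 139 in WT. Gm12481, whose whole transcript matches Serf2, overlaps Fam221b on the opposite strand and was at 5.05 in MiwiR371W and 4.33 in MiwiΔIns, against 28.2 in WT (log2 −2.27). Serf2 was at 92.95 in MiwiR371W, against 109.9 in WT. The pseudogene 4930555K19Rik, with no such copy, was at 107 in MiwiR371W and 55.1 in MiwiΔIns, against 13.5 in WT (log2 2.89). The sources used here do not say how the counting divided reads among such copies.

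Neighbours lay on opposite sides at the Gon4l and Ube4b loci. On chr3, Gon4l was at 31.8 in MiwiR371W and 12.4 in MiwiΔIns, against 12.5 in WT (log2 1.28), while 5830417I10Rik, a pseudogene whose whole transcript matches Gon4l, was at 5.73 in MiwiR371W and 39.7 in MiwiΔIns, against 38.9 in WT (log2 −2.57), and RP23-199B2.4 beside it at 3.02 in MiwiR371W and 12.2 in MiwiΔIns, against 12.2 in WT (log2 −1.71). On chr4, Ube4b was higher while its antisense gene 1700121F15Rik (Ube4bos3) was lower, at 11.2 in MiwiR371W and 35.6 in MiwiΔIns, against 24.8 in WT (log2 −1.08), and 52.5% of the Ube4b transcript matches that gene. Without strand, reads from Ube4b and its antisense partner cannot be told apart. In all, 19 pairs of genes past the rule started within 200000 bases of each other, 10 of them in the same direction. Apol7b and Apol7c, adjacent members of the apolipoprotein L family, were at 11.9 in MiwiR371W, against 25.3 in WT (log2 −1.03), and 8.19 in MiwiR371W, against 3.38 in WT (log2 1.07).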

How the data were processed

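Messenger RNA was sequenced in 1 library each of MiwiR371W, MiwiΔIns and WT round spermatids, so grouping followed the sample labels and no replicate spread exists. The authors deposited 1 table of gene-level signal with no read counts, whose smallest steps scale with transcript length. Trim Galore 0.5.0, STAR, RSEM and the build mm10 (GRCm38) are named per the submitters' processing notes. Neither their settings, nor the annotation, nor whether the values are FPKM or TPM is given in the sources used here.

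The members and gene lists were chosen with earlier results of these data known. Genes with a mean of at least 1 were kept, log2((MiwiR371W + 1)/(WT + 1)) was taken, and the size rule asked for at least 2-fold and 5 in the higher library. The pseudocount pulls ratios of low genes towards 0. Depth was estimated from the spacing of low values of long genes, so counting SDs are estimates. Genes were matched by identifier to GENCODE M21 (17673 of 17946, 98.5%) for positions, lengths and overlaps. Copies were sought with BLAST+ 2.17.0. Python 3.11.15, pandas 2.3.3, numpy 2.4.6 and matplotlib 3.10.9 were used, and the calculation was tested on simulated data. Without stated strand, reads of genes overlapping on opposite strands cannot be told apart. 85 gene lists were examined.

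Genes were named by rule: Piwil1, the 25 largest increases and 25 largest decreases of protein-coding genes with at least 10 in the higher library and no predicted or clone name, the 4 largest each way of lincRNA and antisense genes and of pseudogenes, the 15 most abundant genes, and at most 3 higher and 3 lower genes past the size rule per list, or its 2 most abundant. Other genes were chosen after their values were seen. 1 gene that met the rule is not reported here. Alternatives changed the pseudocount, the scaling, the filters and the fold.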

Additional observations from a re-analysis of the deposited data

Results flagged for a closer look

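For 3 genes the MiwiR371W and MiwiΔIns libraries lay on opposite sides of WT, each past the size rule. The myosin Myo18a was at 30.1 in MiwiR371W and 5.45 in MiwiΔIns, against 14.2 in WT, with log2 ratios to WT of 1.03 and −1.24. Vps39, a subunit of the HOPS complex that tethers vesicles to lysosomes, was at 33.5 in MiwiR371W and 5.4 in MiwiΔIns, against 16.2 in WT, with log2 ratios of 1.004 and −1.43. The MiwiR371W ratio of Vps39 fell short of the rule with a pseudocount of 5 (0.86), median ratio scaling (0.979) and correction for GC and length (0.986). The lincRNA 1700023C21Rik was at 1.87 in MiwiR371W and 29.5 in MiwiΔIns, against 13.01 in WT, with log2 ratios of −2.29 and 1.12. Each genotype had 1 library and both ratios use the same WT library, so the difference between the alleles was not tested. The MiwiR371W value of 1700023C21Rik rested on about 2 fragments.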

How the results depend on the processing

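None of the 93 named genes past the size rule changed sign under the alternative scalings and GC and length correction. That outcome was close to fixed, since these genes had log2 ratios of at least 1 either way and such alternatives shift ratios by far less. A changed pseudocount cannot turn a sign at all. Named genes short of the rule were not checked for sign. The reported counts were 127 higher and 161 lower (44.1% higher). The balance turned to 148 higher and 138 lower with equal sums, and to 154 and 127 without mitochondrial and top 50 genes. A pseudocount of 5 left 30 higher and 54 lower. A mean of at least 5 left 79 higher and 127 lower (38.3% higher), and at least 10 in the higher library left 60 and 114 (34.5%). A 1.5-fold limit gave 655 higher and 722 lower, and a 3-fold limit 31 and 39. Protein-coding genes alone gave 91 higher and 103 lower. Of the 93 named genes past the size rule, 47 dropped out with a pseudocount of 5, and between 0 and 6 under the other pseudocount, the scalings and the GC and length correction. The median of all genes lay between 0.02 and 0.09. Of the list medians under all alternatives, 23 moved by at least 0.1 and 647 did not, and 68 of the 84 lists with an alternative kept the sign of their median in all of them. The scalings shift all ratios together by less than 0.1, so list medians could hardly move by that much under them. No paired analysis was possible because each genotype has 1 library, and leaving out a replicate was not possible for the same reason. Depth limits ratios of genes near a value of 5, and differences between animals, sorts and preparations could not be measured.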

Other observations

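Transcripts that span the membrane traffic and the energy supply of the spermatid had values not used above. The proton pump subunits Atp6v1e2 and Atp6v1f, which acidify the acrosome and other vesicles, were at 98.5 in MiwiR371W, against 164 in WT (log2 −0.73), and 96.8 in MiwiR371W, against 153 in WT (log2 −0.65), while the list of 24 V-ATPase genes had a median of 0.13. Kif2b, a kinesin that depolymerises microtubules, was at 384 in MiwiR371W, against 565 in WT (log2 −0.56), and Kif17, which carries the coactivator Fhl5 out of the nucleus, at 172 in MiwiR371W, against 238 in WT (log2 −0.47). Glycolytic genes had a median of −0.03 over 24 members, with the sperm isoforms Gapdhs and Pgk2 at −0.17 and 0.15. Cyclins and CDKs had 32 of 44 members positive, with a median of 0.17. Tex33 and Spata33, both spermatid genes, were at 373 in MiwiR371W, against 640.3 in WT (log2 −0.78), and 869 in MiwiR371W, against 1105 in WT (log2 −0.35).

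Within 200000 bases of each other lay Gm21598, at 15.1 in MiwiR371W, against 1.71 in WT (log2 2.57), and the lower genes Gm13301, at 6.68 in MiwiR371W, against 21.2 in WT (log2 −1.53), and Gm17081, at 1.66 in MiwiR371W, against 5.84 in WT (log2 −1.36), in a region of predicted genes on chr4. Gm13298, also on chr4 and of the same transcript length as Gm21598, had the same value as it in MiwiR371W (15.07) and in MiwiΔIns (19.87), against 39.03 in WT (log2 −1.32), so how reads were divided between these genes is uncertain. On chr14, where 14 of 543 genes (2.58%) were higher and 9 (1.66%) lower, against 1.01% and 1.28% of all genes taken, Gm7236 and Gm8127 were at 12.4 in MiwiR371W, against 4.59 in WT (log2 1.26), and 10.7 in MiwiR371W, against 3.87 in WT (log2 1.26). Several of the higher chr14 genes have predicted names or near-identical copies. Cdv3 matches 91.8% of the Gm7236 transcript and was at 107 in MiwiR371W, against 138.5 in WT (log2 −0.37). No hypothesis was tested on these values.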
